A study of Homo sapiens with 6 samples.

Results

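The genes of the IL-3 receptor and of the JAK and STAT proteins that carry its signal were examined in BaF3-T315I cells with and without the histone deacetylase inhibitor I13. They were chosen by name, as the 3 receptor chains Il3ra, Csf2rb and Csf2rb2, the 4 kinases Jak1, Jak2, Jak3 and Tyk2, and the 3 transcription factors Stat3, Stat5a and Stat5b. In that order their identifiers in the table are ENSMUSG00000068758, ENSMUSG00000071713, ENSMUSG00000071714, ENSMUSG00000028530, ENSMUSG00000024789, ENSMUSG00000031805, ENSMUSG00000032175, ENSMUSG00000004040, ENSMUSG00000004043, ENSMUSG00000020919. All 10 were found among the 22413 mouse genes of the deposited table, and all 10 were among the 12163 genes tested, which had to average 0.5 FPKM or more across the libraries. FPKM scales the fragments of a gene by gene length and by the number of mapped fragments in the library. The 6 samples were 3 controls and 3 samples given 1.1 µM of I13, which the paper states was for 48 h. The time of the controls is not given. Every sample, the controls included, was the BaF3-T315I line, a murine haematopoietic line stably transfected with BCR-ABL that carries the T315I mutation, so the effect of the fusion itself cannot be seen in this comparison. The labels give no clone and do not say that the replicates were separate cultures, so the p-values measure the spread between these samples, which may be technical. Gene positions and sequences are not given because no mouse reference was used here.

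IL-3 binds the alpha chain encoded by Il3ra, which then pairs with a beta chain. Mice have a pair of closely related beta chain genes, Csf2rb, whose product also serves the receptors for GM-CSF and IL-5, and Csf2rb2, whose product serves IL-3 alone. The beta chain carries JAK2, which phosphorylates the receptor and the STAT5 proteins. Parental BaF3 cells need IL-3 to grow, and BCR-ABL replaces that need, in part by keeping STAT5 phosphorylated without the cytokine. What was measured here is mRNA, not phosphorylation.

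Library totals, recovered from the FPKM values, ran from 16762119 to 17722950 fragments. Haematopoietic genes were present, with Ptprc between 10.2 and 15 FPKM and Laptm5 between 92.2 and 277 FPKM. Of the genes that define early B cells, Cd79a was present at 14.1 to 27.5 FPKM, whereas Pax5 and Ebf1 were at 0 in 5 of the 6 libraries and at most 0.006 FPKM. Markers of T cells summed to at most 0.323 FPKM. In bulk RNA, fewer cells of a type and less RNA per cell cannot be told apart.

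The receptor genes were unequal in level. In the controls, Csf2rb had a mean of 329 ± 118 FPKM and Csf2rb2 of 286 ± 110 FPKM, against 11.4 ± 2.28 FPKM for Il3ra (SD, n = 3 each). Ordered by FPKM in the controls, the beta chains were followed by Jak1 with 22.5 ± 1.41, Stat5b with 16.9 ± 0.396, Stat3 with 13.2 ± 1.34, Jak2 with 11.8 ± 1.43, Jak3 with 11.7 ± 1.99, Tyk2 with 11.7 ± 1.27, Il3ra and Stat5a with 9.02 ± 0.932 (SD, n = 3 each). The values of Stat3, Jak2, Jak3, Tyk2 and Il3ra lay within each other's spread, and so did those of Il3ra and Stat5a and those of Csf2rb and Csf2rb2. The beta chains were thus among the abundant mRNAs of the cell. By FPKM, Csf2rb ranked 107 to 178 among all listed genes in the controls and 52 to 105 in the I13 samples. Counting error was at most 6.7% of the value for Il3ra, at 223 fragments, and at most 0.792% for the beta chains, both below the spread between libraries. The spread of Jak2 in the I13 libraries and of Stat5b in the controls was no larger than their counting error, which was between 2.73% and 3.33% for Jak2 and between 2.43% and 2.75% for Stat5b.

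**Figure D1:**
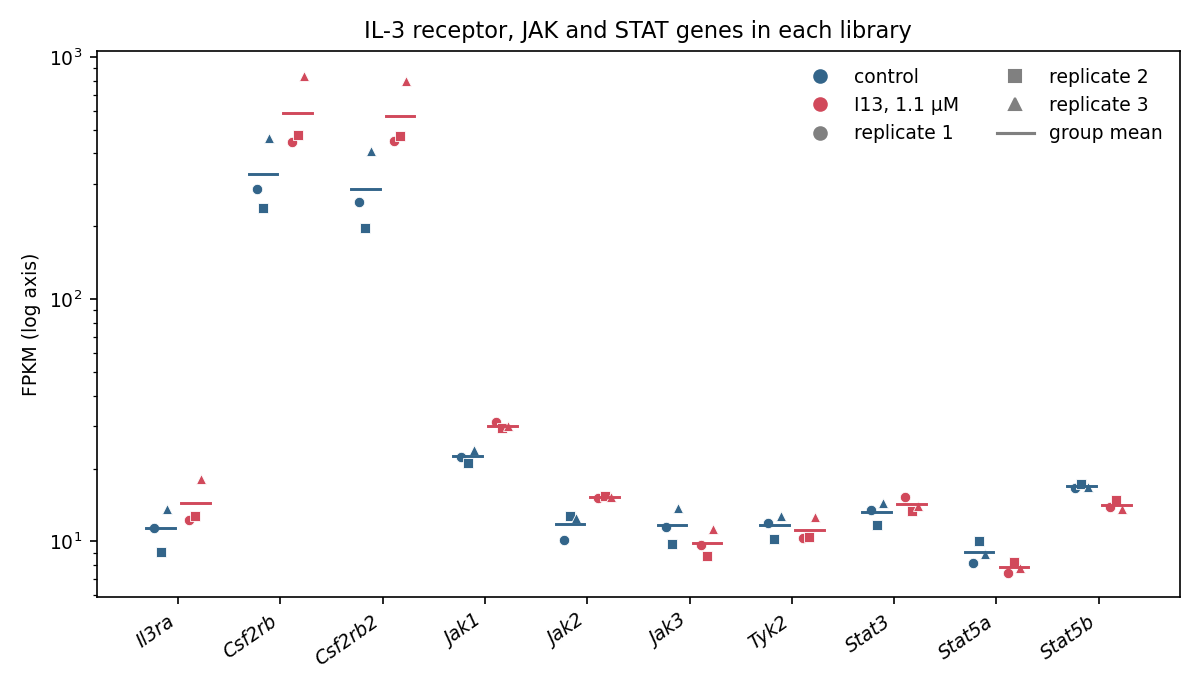
FPKM (log axis) of the 10 genes in each of the 3 control (blue) and 3 I13 (red) libraries, with the replicate number as the symbol and the group mean as a line. Csf2rb and Csf2rb2 lie between 196 and 838 FPKM and all other genes between 7.45 and 31.1 FPKM, and the third replicate is the highest of both groups for all 3 receptor chains.

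Both beta chain genes were higher after I13, each by a factor near that of the spread within a group. Control replicates 1, 2 and 3 held Csf2rb2 at 253, 196 and 408 FPKM, and the I13 replicates held it at 449, 471 and 795 FPKM. Every I13 value lay above every control value, although control replicate 3 came close to I13 replicate 1. The group mean was 2.0 times that of the controls, or 1.02 as a log2 fold change (SE 0.31, limma adjusted p = 0.165). Csf2rb was measured at 286, 239 and 463 FPKM in the controls and at 448, 477 and 838 FPKM after I13. Here the groups overlapped, since control replicate 3 lay above I13 replicate 1. The log2 fold change of Csf2rb was 0.83 (SE 0.31, limma adjusted p = 0.220).

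In both groups the third replicate was the highest for both beta chains. The lowest was replicate 2 in the controls and replicate 1 after I13, so the other replicates did not keep their order. Control replicate 3 held 1.94 times as much Csf2rb as control replicate 2, and I13 replicate 3 held 1.87 times as much as I13 replicate 1. Within the pairs of same-numbered libraries, the log2 difference of Csf2rb, I13 minus control, was 0.64, 1.0 and 0.86, and that of Csf2rb2 was 0.83, 1.26 and 0.96. The labels state no pairing of the replicate numbers, and the pairing was taken from these same data. With the replicate number as a block on that basis, both genes passed the limits used in the study. These were 0.05 for the adjusted p and 0.58 for the size of the log2 fold change. The adjusted p from limma was 0.0313 for Csf2rb (log2 fold change 0.83, SE 0.08) and 0.0312 for Csf2rb2 (1.02, SE 0.09). In that fit, 1.36% of all genes tested were called higher. Without the libraries of replicate 1 the adjusted p of both genes was 0.0319. It was 0.227 for Csf2rb and 0.209 for Csf2rb2 without those of replicate 2, and 0.0788 for both without those of replicate 3. The log2 fold change in those fits was 0.75 and 0.82 for Csf2rb and 0.89 and 1.04 for Csf2rb2, and 0 genes of all those tested were called in either.

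The alpha chain had a smaller difference than either beta chain. Il3ra, which gives the receptor its specificity for IL-3, was at 11.4, 9.07 and 13.6 FPKM in the controls and at 12.2, 12.8 and 18.2 FPKM after I13. The groups overlapped, and each I13 library was above the control of the same number. The log2 fold change was 0.33, with a 95% interval from -0.14 to 0.81 and a limma adjusted p of 0.408, or 0.114 with the replicate block. The summed FPKM of the 2 beta chain genes was 47.5, 47.9 and 63.9 times that of Il3ra in the controls, and 73.5, 74.3 and 89.8 times after I13. This ratio was higher in every I13 library than in every control (exact permutation test, two-sided, p = 0.1, the smallest that 3 against 3 libraries allow).

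Csf2rb2 was also higher relative to Csf2rb after I13. The ratio of their FPKM was 0.884, 0.822 and 0.882 in the controls and 1.0, 0.989 and 0.948 in the I13 libraries. The ratio was 0.863 ± 0.0353 in the control group and 0.980 ± 0.0282 in the I13 group (SD, n = 3 each), without overlap (exact permutation test, two-sided, p = 0.1, and 0.122 after Benjamini-Hochberg adjustment over the 11 sums and ratios computed). The 2 genes are close paralogs, and how the authors assigned reads common to both is not given in the sources used here. The level of each and the ratio are uncertain for that reason. The sum of both genes was 540, 435 and 871 FPKM in the controls and 897, 948 and 1633 FPKM after I13.

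The sum of the macrophage and granulocyte markers was also higher in the I13 libraries. Of the 6 on the list, 5 were in the table and 2 had a mean of at least 0.5 FPKM, Adgre1 and Lyz2. The list summed to 19.9 to 41.6 FPKM in the controls and to 48.3 to 78.8 FPKM after I13. Adgre1, a macrophage surface receptor, made up most of this sum with 18.1 to 40.1 FPKM in the controls and 44.1 to 76.7 FPKM after I13. Neither Adgre1 nor Lyz2 was called (limma adjusted p = 0.180 and 0.202, without the block). Csf1r stayed at or below 0.07 FPKM, Mpo was at 0 in 5 libraries and Elane in 4. The part of these genes in the higher beta chain values was not tested. The early B cell markers summed to 17.7 to 32.9 FPKM in the controls and 27.2 to 34.3 FPKM after I13, with control replicate 2 the lowest. Mast cell and basophil markers summed to 195 to 234 FPKM in the controls and 147 to 216 FPKM after I13. Gata2 alone made up nearly all of this sum, with Fcer1a, Ms4a2 and Mcpt8 at 0.264 FPKM or less. Cpa3 was at 1.26, 1.196 and 9.39 FPKM in the controls and at 2.62, 2.596 and 5.38 FPKM after I13. The log2 fold change was -0.23 for Gata2 and 0.42 for Cpa3 (limma adjusted p = 0.422 and 0.799, without the block). Erythroid markers summed to 0.633 to 1.27 and 2.33 to 5.69 FPKM, and fibroblast and epithelial markers to at most 0.130 FPKM.

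**Figure D2:**
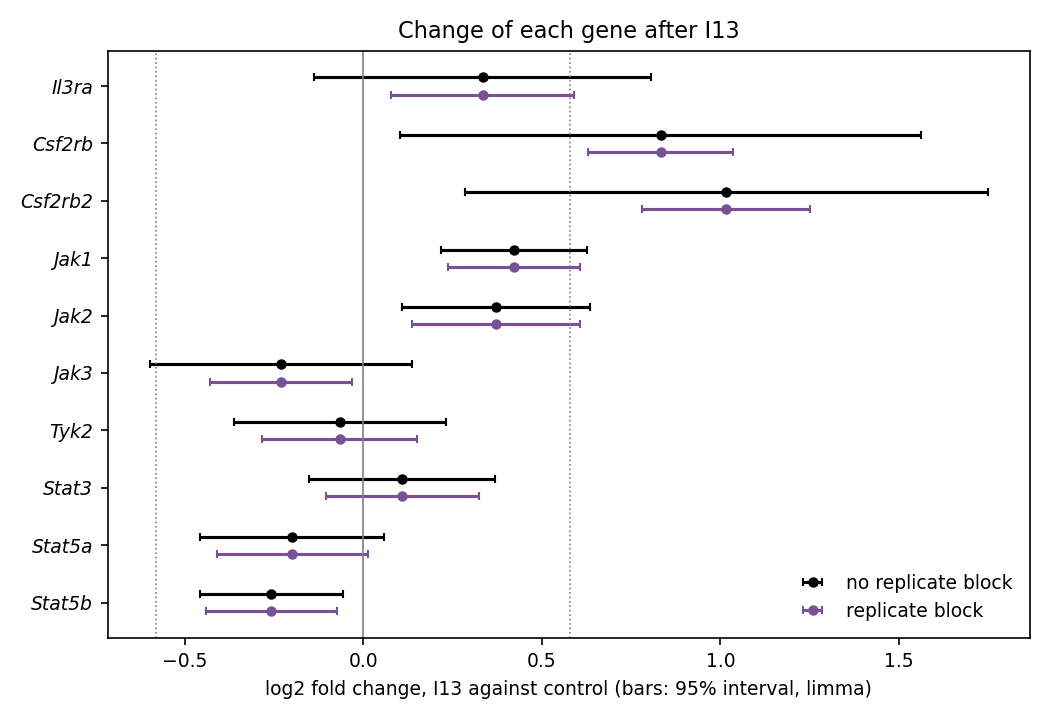
Log2 fold change of each gene, I13 against control, with its 95% interval from limma without (black) and with (purple) the replicate number as a block. Dotted lines mark a log2 fold change of 0.58 in either direction. Of the 10 genes, the intervals of Csf2rb and Csf2rb2 narrowed most with the block, and only theirs then lay wholly above 0.58.

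Among the kinases, Jak1 and Jak2 were higher after I13 and Jak3 was lower in each pair of libraries. Jak1, which serves the receptors for interferons and for the IL-2 and IL-6 families, was at 22.3, 21.2 and 24.0 FPKM in the controls and at 31.1, 29.4 and 29.9 FPKM after I13. The groups were far apart for the spread within them. The log2 fold change of 0.42 (SE 0.09) had the lowest adjusted p of the 10 genes in limma without the block, 0.109. With the block it was 0.0509, just above the limit, and voom weights on the recovered fragments, in a fit that kept the block, gave 0.0124. Jak1 did not reach a log2 fold change of 0.58 in any of these fits.

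Jak2, the kinase bound to the IL-3 beta chain, was at 10.1, 12.7 and 12.5 FPKM in the controls and at 15.05, 15.4 and 15.2 FPKM after I13. The I13 libraries were alike, and all of them lay above the controls. On the log2 scale the fold change was 0.37 (SE 0.11, limma adjusted p = 0.162). That p was 0.0832 with the block and 0.0333 when voom was used in addition. Jak3, which binds the common gamma chain of the IL-2 family receptors, was at 11.5, 9.75 and 13.7 FPKM in the controls and at 9.64, 8.69 and 11.3 FPKM after I13. The groups overlapped, and the log2 fold change of -0.23 had a limma adjusted p of 0.463, or 0.137 with the block. It was -0.11 without control replicate 3 and -0.14 without I13 replicate 2. Tyk2, a kinase of the interferon and IL-12 receptors, had control values from 10.3 to 12.8 FPKM and I13 values from 10.3 to 12.6 FPKM. Its log2 fold change of -0.07 had a 95% interval from -0.36 to 0.23 and had the opposite sign, at 0.0018, without control replicate 3.

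Jak1 made up more of the JAK mRNA in the I13 libraries. Jak1 took 39.9%, 39.3% and 38.0% of the summed FPKM of the 4 kinases in the controls, and 47.0%, 45.98% and 43.3% after I13. The share of Jak3 was 20.2% ± 1.88 in the controls and 14.9% ± 1.42 after I13, and that of Tyk2 was 20.2% ± 1.16 and 16.8% ± 1.35 (SD, n = 3 each). For these 3 genes the shares of the groups did not overlap (exact permutation test, two-sided, p = 0.1 each, the smallest possible). Jak2 had 18.2% to 23.6% in the controls and 22.0% to 24.0% after I13, with overlap (exact permutation test, two-sided, p = 0.3). The shares sum to 100%, so they are not independent of each other.

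**Figure D3:**
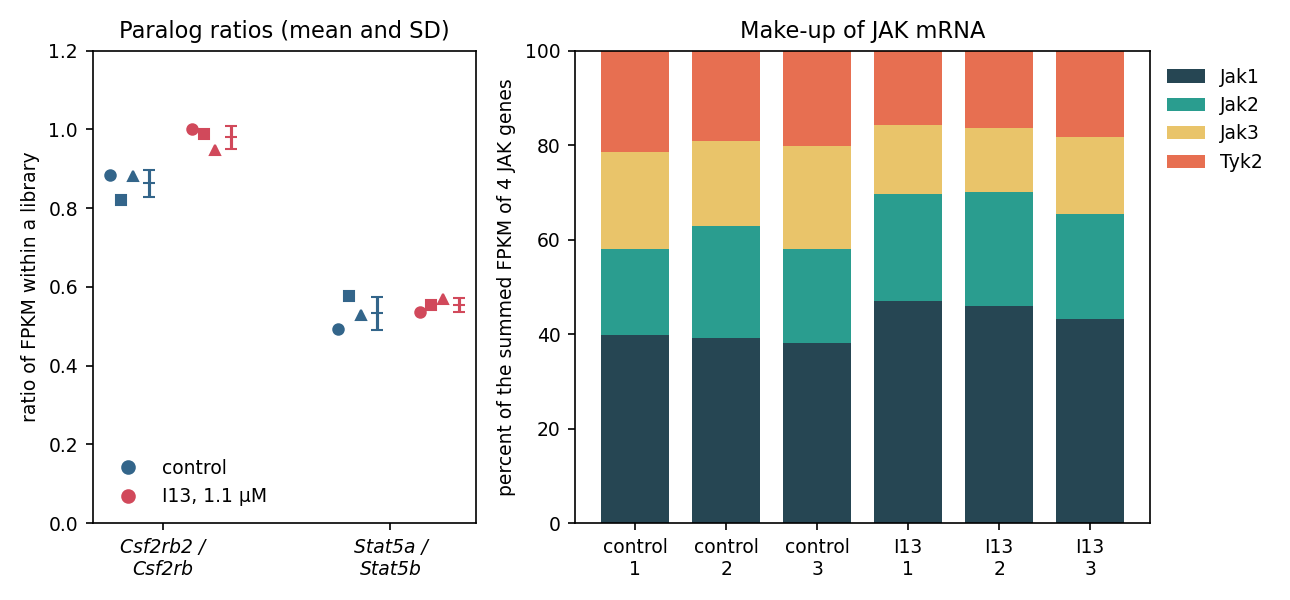
Left, the FPKM of Csf2rb2 relative to Csf2rb and of Stat5a relative to Stat5b within each control (blue) and I13 (red) library, with the mean and SD of each group beside the points and the replicate number as the symbol. Right, the percent of the summed FPKM of 4 JAK genes held by each gene in each library. The Csf2rb2 ratio is 0.822 to 0.884 in the controls and 0.948 to 1.0 after I13, the Stat5a ratio overlaps, and Jak1 is at most 39.9% in the controls and at least 43.3% after I13.

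The STAT5 genes were lower after I13 in each pair of libraries. Stat5b was at 16.6, 17.3 and 16.8 FPKM in the controls and at 13.9, 14.8 and 13.7 FPKM after I13, without overlap and with little spread in either group. On the log2 scale the fold change was -0.26 (SE 0.08, limma adjusted p = 0.186, and 0.101 with the block). Stat5a was at 8.17, 10.02 and 8.88 FPKM in the controls and at 7.45, 8.23 and 7.80 FPKM after I13. Control replicate 1 lay below I13 replicate 2, and each I13 library was below the control of its own number. Its log2 fold change of -0.20 had a 95% interval from -0.46 to 0.06 and a limma adjusted p of 0.371, and it was -0.12 without control replicate 2. The summed FPKM of both genes, 24.7, 27.4 and 25.7 in the controls and 21.3, 23.1 and 21.5 after I13, did not overlap between the groups (exact permutation test, two-sided, p = 0.1). The ratio of Stat5a to Stat5b was 0.533 ± 0.0425 in the controls and 0.554 ± 0.017 after I13 (SD, n = 3 each), with overlap (exact permutation test, two-sided, p = 0.5). These 2 genes are close paralogs as well, and the same uncertainty holds for reads that both could have given.

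Stat3, the main transcription factor of the IL-6 family receptors, was at 13.5, 11.8 and 14.4 FPKM in the controls and at 15.3, 13.4 and 13.98 FPKM after I13. The groups overlapped. On the log2 scale the fold change of 0.11 had a 95% interval from -0.15 to 0.37 and a limma adjusted p of 0.631, and it was 0.027 without control replicate 2. The STAT5 sum relative to Stat3 was 1.98 ± 0.301 in the controls and 1.55 ± 0.165 after I13 (SD, n = 3 each), without overlap (exact permutation test, two-sided, p = 0.1).

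Counted over the 10 genes, none passed both thresholds in limma without the block, where 0.0411% of all genes tested passed, 0.0329% higher and 0.00822% lower. None of the 10 passed in voom without the block either. At an unadjusted p below 0.05 in limma were 4 higher genes, Csf2rb, Csf2rb2, Jak1 and Jak2, and 1 lower gene, Stat5b. Of all genes tested, 7.79% were higher and 10.8% lower by that rule. In 3 genes, Csf2rb2, Jak1 and Jak2, every I13 value exceeded every control value, and in 1, Stat5b, every I13 value was below, against 9.82% and 15.4% of all genes tested. In all 3 pairs, 5 genes were higher and 3 were lower, which 24.1% and 27.3% of all genes tested were. With the block, 2 genes passed both thresholds, against 1.89% of all genes tested in either direction (1.36% higher and 0.526% lower), and the same 2 had an adjusted p below 0.05 (2.99% of all genes tested did). With the block and voom, the same 2 genes passed both thresholds (4.14% of all genes tested did, 3.09% on the higher side), and 4, with Jak1 and Jak2 added, had an adjusted p below 0.05 (12.4% of all genes tested did). The median log2 fold change of the 10 genes was 0.22, beside -0.005 over all genes tested. On the log2 scale the fold change of Csf2rb2 was above that of 98.1% of the genes tested, and that of Stat5b was above that of 17.6%.

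**Figure D4:**
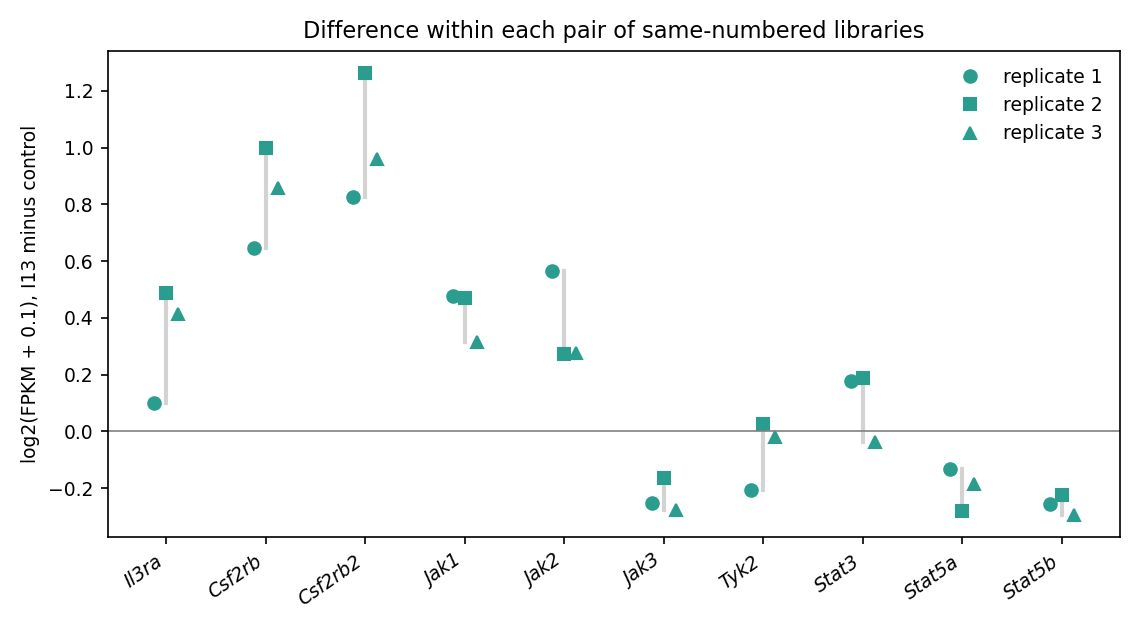
Difference in log2(FPKM + 0.1) between the I13 and the control library of the same replicate number, for each of the 10 genes, with a grey line from the lowest to the highest pair. The 3 receptor chains, Jak1 and Jak2 lie above 0 in all pairs, Jak3, Stat5a and Stat5b lie below 0 in all pairs, and Tyk2 and Stat3 fall on both sides.

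The ligand genes were at or near 0. Il3, Csf2 and Il5, which encode IL-3, GM-CSF and IL-5, reached at most 0.0902 FPKM in any library and were not tested. Il3 was at 0 in all controls and in 2 of the 3 I13 libraries. Of the 5 ligand and alpha chain genes on this list, 3 were found by name in the deposited table. The alpha chain genes Csf2ra and Il5ra were not, so no values are given for them. Of the 4 remaining STAT genes, 3 were tested, and none had an unadjusted p below 0.05. Stat6, which carries the IL-4 signal, was at 17.7 to 23.9 FPKM in the controls and 15.4 to 20.3 FPKM after I13, with a limma adjusted p of 0.591. Stat2 was at 6.38 to 8.37 and 5.81 to 7.55 FPKM. Stat4 was at most 0.0586 FPKM and was not tested.

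Inhibitors of JAK-STAT signalling lay on both sides. All 19 on the list were tested. At an unadjusted p below 0.05, 3 were higher and 2 lower (15.8% and 10.5%, beside 7.79% and 10.8% of all genes tested), 14 did not pass, and none passed both thresholds. Socs6, a suppressor of cytokine signalling, was at 4.38, 5.05 and 4.05 FPKM in the controls and at 7.04, 7.35 and 6.64 FPKM after I13. It was higher in all 3 pairs, by a log2 difference of 0.67, 0.53 and 0.70. With the block it passed both thresholds (log2 fold change 0.63, limma adjusted p = 0.0447, against 0.104 without the block). With the block and voom it passed them again (limma adjusted p = 0.0048). No blocked fit without the libraries of 1 replicate number called it, and without those of replicate 2 or 3 no gene at all was called. Ptprc encodes CD45, a phosphatase that acts on JAK proteins. It was at 10.2 to 10.9 FPKM in the controls and 13.5 to 15 FPKM after I13 (limma adjusted p = 0.109). Socs3 had a log2 fold change of 0.64 from a low level, 1.33 to 1.57 FPKM in the controls and 1.82 to 3.07 FPKM after I13 (limma adjusted p = 0.196). The lower genes were Pias4, an inhibitor of STAT proteins, with a log2 fold change of -0.44, and Socs7, with -0.33. The most abundant were Cish, a STAT5-induced inhibitor of the same receptor, and Cbl, a ubiquitin ligase. Cish was at 38.5, 15.5 and 30.2 FPKM in the controls and at 45.8, 32.1 and 39.0 FPKM after I13, higher in each pair but with overlap, and its log2 fold change of 0.56 had a limma adjusted p of 0.390. The median log2 fold change of the list was 0.04.

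Of 13 adaptors and kinases that act at the receptor, 12 were tested. At an unadjusted p below 0.05, 1 was higher and 1 lower, 8.33% on each side and thus near the shares of all genes tested, with a median log2 fold change of -0.05. Ptpn11, which encodes the phosphatase SHP2, was at 18.2, 19.0 and 22.1 FPKM in the controls and at 25.7, 23.9 and 23.7 FPKM after I13 (log2 fold change 0.31, limma adjusted p = 0.190). Pik3cd, a catalytic subunit of PI3K, was at 49.6, 50.7 and 60.8 FPKM in the controls and at 34.4, 43.6 and 46.1 FPKM after I13 (log2 fold change -0.38, limma adjusted p = 0.214). The groups of both genes did not overlap, as was so for 9.82% (higher) and 15.4% (lower) of all genes tested. Both genes were named for their unadjusted p, so the lack of overlap adds no separate support. The most abundant were Ywhaz, a 14-3-3 protein, with 135 to 151 FPKM in the controls and 151 to 155 FPKM after I13, and the adaptor Grb2, with 65.8 to 71.8 and 66.2 to 67.9 FPKM.

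Among 28 further receptors that signal through JAK proteins, 22 were in the table and 16 were tested. At an unadjusted p below 0.05, 1 was higher and 1 lower, 6.25% on each side. Of all genes tested, 7.79% and 10.8% were, so neither share of the list exceeded that of all genes. None passed both thresholds without the block. Il12rb2, a chain of the IL-12 receptor, was at 3.35, 1.57 and 2.96 FPKM in the controls and at 5.52, 5.93 and 4.29 FPKM after I13 (log2 fold change 1.03, limma adjusted p = 0.142, and 0.0889 with the block). With the block and voom, Il12rb2 passed both thresholds (log2 fold change 1.01, limma adjusted p = 0.0261), where 4.14% of all genes tested did. Il2ra, the alpha chain of the IL-2 receptor, differed most of this list, with a log2 fold change of 1.91 and a wide spread. It was at 96.8, 5.89 and 32.3 FPKM in the controls and at 166, 46.8 and 127 FPKM after I13, higher in each pair and overlapping between groups (SE 0.97, limma adjusted p = 0.333). Il4ra was at 16.3 to 31.8 FPKM in the controls and 19.6 to 28.6 FPKM after I13. The median log2 fold change of the list was 0.12.

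**Figure D5:**
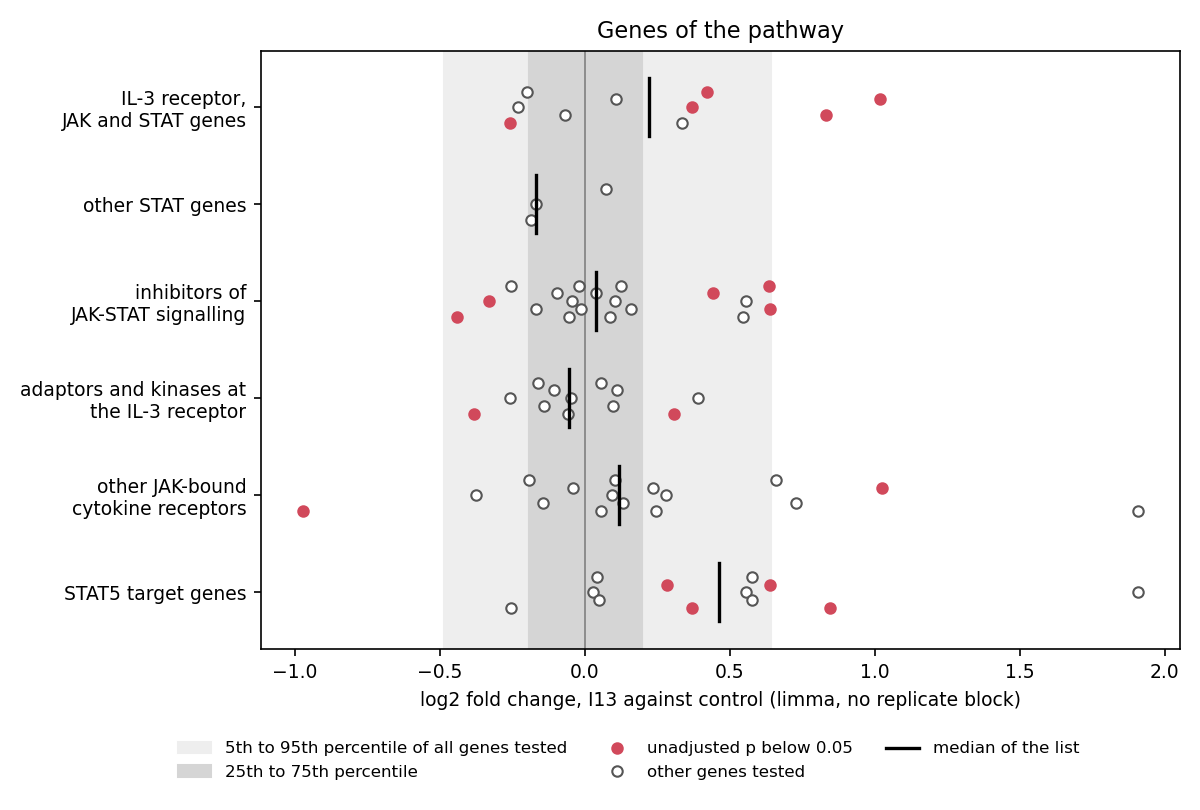
Log2 fold change (limma, no replicate block) of the tested genes of each list, with filled points for an unadjusted p below 0.05 and a black line for the median of the list. The shaded bands hold 25% to 75% and 5% to 95% of the 12163 genes tested. Csf2rb and Csf2rb2 lie to the right of the wider band, and the STAT5 target genes have the highest median of the lists, 0.46.

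Among known target genes of STAT5, those that passed an unadjusted p of 0.05 were all higher. Of 15 genes on that list, 12 were tested. At an unadjusted p below 0.05 in limma, 4 were higher and 0 lower (33.3% and 0%, beside 7.79% and 10.8% of all genes tested). The other 8 did not pass, and none of the 12 passed both thresholds. The 4 were Socs3, Osm, Pim1 and Myc. Osm, which encodes oncostatin M, was at 29.4, 16.8 and 29.2 FPKM in the controls and at 34.3, 35 and 70.2 FPKM after I13, without overlap (log2 fold change 0.85, limma adjusted p = 0.235, and 0.077 with the block). Without the libraries of replicate 1, Osm and Il2ra passed both thresholds in the fit with the block. With the block and voom on all libraries both passed them too (limma adjusted p = 0.0167 and 0.00985), where 4.14% of all genes tested did. Pim1, a survival kinase, was at 126 to 162 FPKM in the controls and 163 to 185 FPKM after I13, with only a narrow gap between the groups (log2 fold change 0.28, limma adjusted p = 0.249). Myc was at 142, 170 and 133 FPKM in the controls and at 195, 222 and 159 FPKM after I13 (log2 fold change 0.37, limma adjusted p = 0.252, and 0.052 with the block). Socs2 had a log2 fold change of -0.26 (limma adjusted p = 0.407). The median log2 fold change of the list was 0.46, and its dependence on single libraries was not tested. For Cish, Il2ra, Pim1 and Socs3 the pair of replicate 2 differed most, by a log2 difference of 1.05, 2.97, 0.44 and 1.05. For Osm, Myc and Socs2 another pair did. Cish, Socs2, Socs3 and Il2ra stand on a second list as well. Over all lists, 8 of 58 genes tested were higher and 4 lower at an unadjusted p below 0.05, 13.8% and 6.9%, against 7.79% and 10.8% of all genes tested.

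Genes with the most similar pattern over the 6 libraries were sought by Pearson's r of log2(FPKM + 0.1) among the 10869 other genes with a mean of at least 1 FPKM. With 6 points taken from 2 groups, many genes reach a high r, and the values only describe these libraries. For Csf2rb they were Arhgap28, Lima1 and Cd200r4 (r = 0.996, 0.995 and 0.995). For Il3ra they included Itm2c and Ifi27 (0.991 and 0.990). For Jak2 they were Crebl2, AI504432 and Vps26a (0.994, 0.991 and 0.988), and for Stat5a Kcnab2, Ing5 and Zfp668 (0.994, 0.990 and 0.988). Cd200r4 went from a mean of 15.6 FPKM in the controls to 40.8 FPKM after I13.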

How the data were processed

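Stranded mRNA libraries of 3 control and 3 I13-treated BaF3-T315I samples were sequenced. The authors deposited FPKM values per gene and sample, with no scaling between samples stated and replicates not pooled. The submitters' processing notes name Trimmomatic, HISAT2, Cufflinks and HTSeq, without versions, and the build hg38. The labels call the organism human, whereas the gene identifiers are mouse Ensembl identifiers and the paper calls the cells murine, so the values were used as mouse genes. Reads that fit paralogs equally well may have been lost or split, and their handling is not given in the sources used here.

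The members and lists were chosen with earlier results of these data known. Groups and replicate numbers came from the sample titles. The groups were compared on the log2(FPKM + 0.1) scale by limma 3.58.1 in R 4.3.3 (eBayes with a trend on mean expression) over the 12163 genes that averaged 0.5 FPKM or more. Benjamini-Hochberg adjustment covered all of them, and calls needed both limits of the study, 0.05 for the adjusted p and 0.58 for the size of the log2 fold change. This scale understates the change of low genes. Same-numbered samples deviated together from their group means, with correlations across genes of 0.15, 0.30 and 0.22. Between samples of different number the correlations were -0.26 to 0.05. Deviations within a group sum to 0 for each gene, so these correlations are not independent of each other. The labels give the replicate numbers but state no pairing, so the pairing was taken from these same data. A further fit had the replicate number as a block. Whole fragments were recovered from the FPKM of 99.93% of genes within 0.03 fragments, from a whole length per gene and the library totals, and were analysed with voom. Counting errors from them cover counting only, whereas the voom fits use the spread between libraries. The fits were tested on simulated data. Named besides the 10 genes were list genes with an unadjusted p below 0.05 and the 2 most abundant of each list. Il3ra, Csf2rb, Jak2 and Stat5a were also matched with the 3 genes most like them. Some genes that these rules name are not reported here. Socs2, Stat4 and Csf2 are list genes named outside that rule, after their values were seen, and the marker genes are from cell type lists. No 2 libraries held identical values, and 0 columns were left without a sample. Figures were drawn with matplotlib 3.10.9.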

Additional observations from a re-analysis of the deposited data

How the results depend on the processing

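The block on replicate number, by which the samples were taken to pair, raised the number of calls. With the replicate block, 2 of the 10 genes passed both thresholds and 2 had an adjusted p below 0.05, against 0 without it, 2 genes of the pathway lists were called, against 0, and 166 genes were elevated and 64 decreased over all genes tested, against 4 and 1. Without both libraries of replicate 1 these were 2, 2, 3, 78 and 5. Without those of replicate 2 or 3 each was 0, where 1638 and 3160 genes passed an unadjusted p of 0.05. With the block and voom they were 2, 4, 6, 375 and 128. The block changed no other call among the 10 genes.

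A pseudocount of 0.01, median-ratio scaling and quantile normalization gave 2 elevated and 0 decreased genes, and no filter on low values or eBayes without a trend gave 3 decreased genes. With 1 library left out, the elevated and decreased genes and the calls among the 10 genes and the pathway lists were 0 to 0 each, and between 1478 and 2482 genes passed an unadjusted p of 0.05. Fewer samples lower the power of those fits, and otherwise the cause was not tested. Over all 20 alternatives the adjusted p ran from 0.000945 to 0.437 for Csf2rb and from 0.000734 to 0.364 for Csf2rb2. Csf2rb had a log2 fold change of 0.55 without I13 replicate 3 and 1.11 without control replicate 3, and Csf2rb2 had 0.75 and 1.31. The log2 fold change of Il3ra was 0.15 without I13 replicate 3 and 0.18 without control replicate 2, and leaving out 1 library gave -0.35 to -0.11 for Jak3, 0.027 to 0.17 for Stat3 and -0.27 to -0.12 for Stat5a. Tyk2 changed sign without control replicate 3 (0.0018, with a lowest value of -0.16 when 1 library was left out) and in the blocked fit without replicate 1 (0.0037). The direction of the other 9 genes was the same under every alternative. Where libraries differed by no more than counting error, as for Jak2 after I13 and Stat5b in the controls, depth limits how well the spread is known.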
